A study of Mus musculus with 13 samples.

Results

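The genes described here encode the protein disulfide isomerases and oxidases of the endoplasmic reticulum (ER), followed in brown adipose tissue of mice, a fat depot specialised for heat production. They were chosen by symbol and number 10 of the 55357 genes of the count table: P4hb, Pdia3, Pdia4, Pdia5, Pdia6, Txndc5, Erp29, Erp44, Ero1a and Ero1b, with 1 row each. A total of 11073 genes had enough counts to be tested, and 9 of the 10 were among them. Pdia5 was not, with 1 to 16 counts per library. Ero1b, with 91 counts in all, passed only through 2 libraries of the group in which it was highest (knockout cold 2 and 3), so a difference towards that group was built into its being tested.

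Tissue came from mice with the genotype Stim1/2_fl/fl (control), whose Stim1 and Stim2 genes are floxed but intact, or Stim1/2_Adp-Cre (KO), in which Cre under the adiponectin promoter deletes both. STIM1 and STIM2 are the ER membrane proteins that sense the filling of the calcium store and open calcium channels of the plasma membrane. That promoter is known to be active in adipocytes, and whether other cells of the tissue kept both genes was not measured here. Mice stayed at room temperature (RT) or spent 6 h at 4 °C (cold), giving 4 libraries of control cold, 4 of KO cold, 2 of control RT and 3 of KO RT, and every library carries the same batch label. The labels give neither age nor strain and do not say whether each library stands for its own mouse. The p-values therefore describe the spread among these libraries alone, which may be technical.

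Each library held 1570684 to 2016178 counts. Stim1 ran from 114 to 134 CPM (tags set to the same scaled library size) in control cold and from 78.8 to 108 in KO cold, and Stim2 from 31.1 to 54.5 and from 13.5 to 29.7. At RT the ranges were 126 to 149.9 in control and 62.0 to 86.1 in KO for Stim1, and 29.0 to 40.4 and 21.0 to 25.2 for Stim2. Each was lower in every KO library than in every control library of the same temperature, as labelled. In edgeR's test the differences were -0.45 ± 0.13 for Stim1 (log2 fold change ± standard error, q = 0.0570, where q is the adjusted p) and -0.88 ± 0.24 for Stim2 (q = 0.0382) in cold, and -0.90 ± 0.17 (q = 0.349) and -0.59 ± 0.30 (q = 1) at RT. The Stim2 call in cold was lost on leaving out any 1 of control cold 3, control cold 4, KO cold 1, KO cold 3, KO cold 4 and KO RT 1 (q = 0.0533 to 0.105), and in a fit of the cold libraries alone (q = 0.0635). Tags from the 3′ end of a gene can lie outside its deleted exons. The tissue carried brown adipocyte markers in all groups, and 7 were summed (Ucp1, Cidea, Adipoq, Plin1, Fabp4, Elovl3 and Dio2). The sums were 15675 to 18034 CPM in control RT, 15701 to 17938 in KO RT, 22818 to 26866 in control cold and 21287 to 22763 in KO cold. In cold, Ucp1 and Dio2 lay lower and Plin1 higher in every KO library than in every control library. Of all tested genes, 6.53% lay lower and 6.28% higher in this way. At RT Elovl3 lay higher in every KO library (55.2 to 139.6 against 42.3 and 28.9 CPM), as did 8.68% of all tested genes, and the other markers overlapped. None of the 7 was called between genotypes. Skeletal muscle markers (Acta1, Ckm, Myh4, Myh1 and Tnnt3) set some libraries apart, with sums of 1355 CPM in control RT 1 and 12.7 in control RT 2, 40.4 to 816 in KO RT, 0 to 138 in control cold and 0.612 to 174 in KO cold.

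Proteins that enter the ER are fastened by disulfide bonds between their cysteines. Protein disulfide isomerases form these bonds in new chains and reshuffle wrong ones, and the Ero1 oxidases recharge the isomerases by passing electrons to oxygen, which makes hydrogen peroxide. In adipocytes Erp44 and Ero1a are known for holding back and releasing adiponectin, a secreted protein whose large forms are joined by disulfide bonds. Many of these genes are known targets of the unfolded protein response, in which the factors ATF6 and XBP1 act through a promoter element called ERSE (ER stress response element), read here as CCAAT and CCACG with 9 bases of any kind between them. STIM1 carries cysteines in its ER lumenal part, and Pdia3 is known to act on it.

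Promoters are shown for Pdia6, Pdia4 and Pdia3, which passed in KO cold against control cold, and for Ero1b, which has an exact ERSE match. The windows of Erp44, which did not pass, are not shown. RefSeq promoter windows (build GRCm38.p6) were at hand for 9 of the 10 genes, all but Erp29, as 12 windows of 250 bases before the annotated start. All motifs were searched on both strands, and the CCAAT box, also searched by itself, is part of ERSE. An exact match was in the windows of Pdia6, at 98 to 80 bases before the start, and of Ero1b, on the opposite strand at 201 to 183 bases before it. Exact matches were thus in 2 of 9 genes, and over all genes in 35 of 27025, 0.130%. With at most 1 mismatch, Pdia3 (29 to 11 bases before the start), Pdia4 (108 to 90, opposite strand) and Erp44 also matched, which makes 5 of 9 genes against 1.51% of all genes. Such matches describe letters in a window and say nothing on binding. In the 4 sequences, written 5′ to 3′ along the gene's strand, capitals mark the ERSE match, which has 1 mismatch in Pdia3 and Pdia4.
Pdia6 (chr12:17266339-17266588, plus strand): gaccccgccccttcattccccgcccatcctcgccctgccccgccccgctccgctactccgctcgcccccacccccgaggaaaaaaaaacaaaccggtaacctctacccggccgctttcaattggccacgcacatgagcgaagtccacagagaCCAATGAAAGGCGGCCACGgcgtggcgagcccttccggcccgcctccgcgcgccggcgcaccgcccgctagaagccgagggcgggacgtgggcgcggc
Ero1b (chr13:12565633-12565882, plus strand): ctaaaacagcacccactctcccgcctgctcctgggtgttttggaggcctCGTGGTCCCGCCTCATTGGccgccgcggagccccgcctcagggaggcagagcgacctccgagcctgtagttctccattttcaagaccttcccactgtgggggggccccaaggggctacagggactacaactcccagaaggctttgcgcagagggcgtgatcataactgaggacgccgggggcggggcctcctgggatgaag
Pdia3 (chr2:121413652-121413901, plus strand): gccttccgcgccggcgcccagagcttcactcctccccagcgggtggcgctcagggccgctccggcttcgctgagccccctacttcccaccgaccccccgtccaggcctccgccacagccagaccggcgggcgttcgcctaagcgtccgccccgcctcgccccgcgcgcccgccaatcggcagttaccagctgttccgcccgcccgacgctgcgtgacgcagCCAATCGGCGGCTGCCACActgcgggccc
Pdia4 (chr6:47813513-47813762, minus strand): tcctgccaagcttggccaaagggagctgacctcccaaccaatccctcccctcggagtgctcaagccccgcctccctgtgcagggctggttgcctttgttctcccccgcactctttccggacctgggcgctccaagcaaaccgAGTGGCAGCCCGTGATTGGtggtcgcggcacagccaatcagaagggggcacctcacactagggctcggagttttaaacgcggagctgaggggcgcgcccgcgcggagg

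Of the other letters searched, TGACGTGG, the core of another response element (UPRE), was in 1 of the 3 windows of Txndc5, 1 of 9 genes, and in 0.603% of all genes. The element ERSE-II (ATTGG and CCACG with 1 base of any kind between them) was in none of the 9 genes and in 0.0370% of all genes. CCAAT on either strand was in windows of 6 of the 9 genes and of 37.5% of all genes.

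The main comparison asked how the knockout differed from control after cold. Pdia6, Pdia4 and Pdia3 rose in KO cold, by 2.34-fold, 3.36-fold and 1.73-fold, and none of the 9 tested genes fell. A gene counts as changed when q, the Benjamini-Hochberg adjusted p of edgeR's quasi-likelihood test, is under 0.05, and 2.44% of all tested genes were changed towards higher levels here and 3.49% towards lower. Ero1b, whose direction here was favoured by the filter, is left out of the next counts. The other 8 fold changes were all above 0, as were 49.4% over all tested genes, with a median of 0.42 on the log2 scale (0.46 with Ero1b) against -0.01 over all tested genes. An unadjusted p under 0.05 was found for 6 of the 8, all higher, and for 20.1% of all tested genes. DESeq2 also called 3 higher and 0 lower. In tissue RNA, a change in the number of cells of a type cannot be told apart from a change in RNA per cell.

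**Figure D1:**
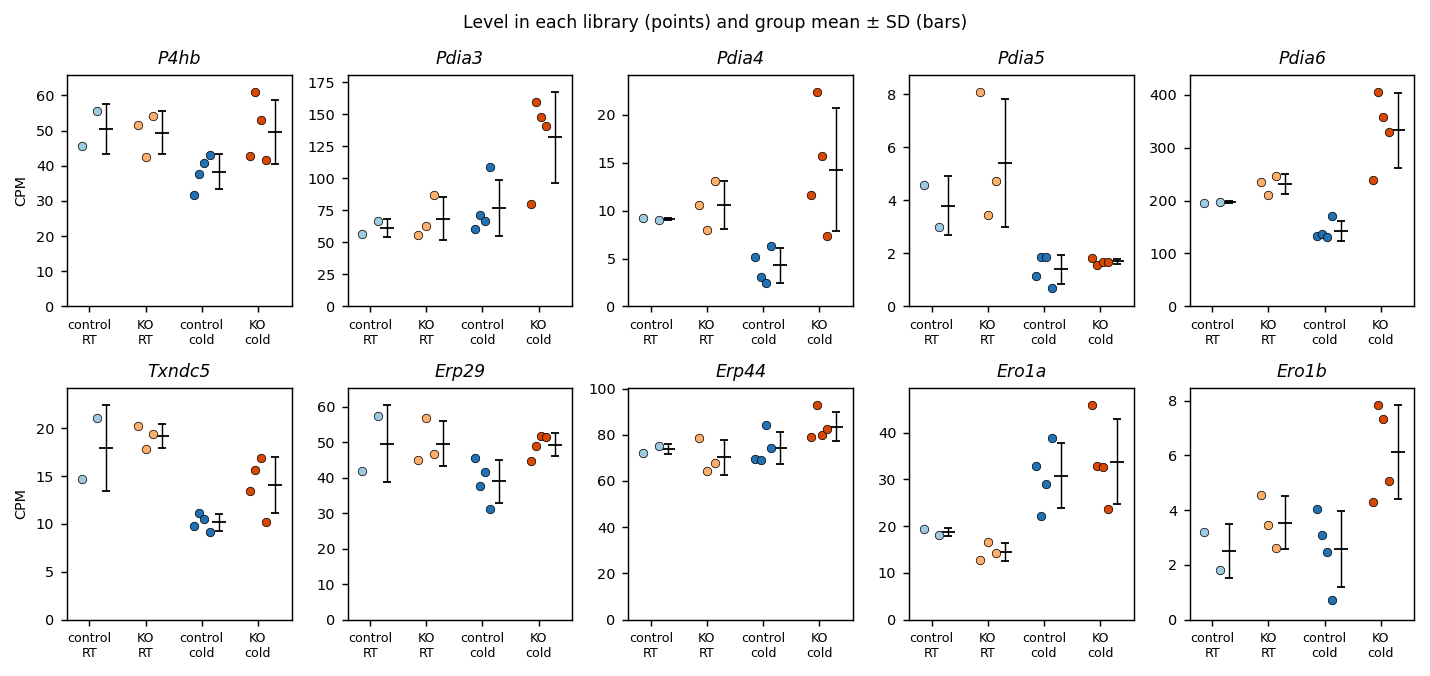
CPM of the 10 genes in each of the 13 libraries (points, vertical axis, starting at 0 with its own scale per gene) by group (horizontal axis), with group means (dash) and SD (error line) beside the points. The KO cold points of Pdia6 (238 to 406 CPM) and Pdia4 (7.34 to 22.4) lie above all control cold points. So do those of Ero1b (4.28 to 7.83), which passed the count filter only through KO cold libraries.

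Pdia6 (ENSMUSG00000020571.14, chromosome 12), an isomerase that works beside the ER chaperone BiP, measured 133, 136, 131 and 172 CPM in control cold 1 to 4 and 238, 406, 359 and 330.1 in KO cold 1 to 4. The means were 143 ± 19.1 (SD, n = 4) and 333 ± 70.7 (SD, n = 4). Every KO cold library lay above every control cold library, and the lowest KO value came from KO cold 1. The log2 fold change was 1.22 ± 0.15 (q = 0.000102). It held in each alternative fit and on leaving out any 1 library, with q at most 0.000704 in the latter.

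Pdia4 (ENSMUSG00000025823.10, chromosome 6), an isomerase with an additional thioredoxin domain, was scarce. It measured 5.18, 3.09, 2.48 and 6.35 CPM in control cold 1 to 4 and 11.6, 22.4, 15.8 and 7.34 in KO cold 1 to 4, from 4 to 43 counts per library over the study. The groups did not overlap, though KO cold 4 lay close above control cold 4. The means were 4.28 ± 1.81 (SD, n = 4) and 14.3 ± 6.43 (SD, n = 4), and the log2 fold change was 1.75 ± 0.37 (q = 0.00992). It also held on leaving out any 1 library, with q from 0.00358 to 0.0380.

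Pdia3 (ENSMUSG00000027248.14, chromosome 2), the isomerase that folds glycoproteins together with calnexin and calreticulin, measured 60.5, 71.1, 66.3 and 109 CPM in control cold 1 to 4 and 80.2, 159.6, 148 and 141 in KO cold 1 to 4. Here the groups overlapped: KO cold 1 lay below control cold 4, while the other KO libraries lay above all controls. The means were 76.6 ± 21.8 (SD, n = 4) and 132 ± 35.5 (SD, n = 4). The log2 fold change of 0.79 ± 0.22 passed the threshold (q = 0.0383). The call was lost on leaving out any 1 of control cold libraries 1 to 3 and KO cold libraries 2 to 4 (q = 0.0863 to 0.111).

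The other isomerases did not pass. P4hb (ENSMUSG00000025130.12, chromosome 11), the founding isomerase and a subunit of collagen prolyl hydroxylase, measured 31.7, 37.7, 40.9 and 43.1 CPM in control cold and 42.8, 61.0, 52.9 and 41.8 in KO cold, a difference of 0.38 ± 0.16 (q = 0.185). Txndc5 (ENSMUSG00000038991.18, chromosome 13), an isomerase with repeated thioredoxin domains, measured 9.79, 11.1, 10.5 and 9.18 CPM and 13.5, 15.7, 16.9 and 10.2 (0.46 ± 0.22, q = 0.242). KO cold 1 and 4 of P4hb and KO cold 4 of Txndc5 lay inside the control range, and the other KO libraries above it. Pdia5 (ENSMUSG00000022844.9, chromosome 16), a less studied isomerase, lay between 0.706 and 1.86 CPM in all 8 cold libraries, a few counts each, and a fit without the count filter gave 0.25 ± 0.67 (q = 0.954).

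Erp29 and Erp44 differ from the isomerases in function: Erp29 lacks the active-site cysteine pair and aids protein escort and secretion, and Erp44 retrieves clients and oxidases from the early secretory pathway. Erp29 (ENSMUSG00000029616.10, chromosome 5) measured 45.5, 37.7, 41.5 and 31.1 CPM in control cold and 44.7, 49.0, 51.8 and 51.4 in KO cold (0.33 ± 0.15, q = 0.228). Erp44 (ENSMUSG00000028343.11, chromosome 4) measured 69.7, 69.2, 84.2 and 74.1 and 78.9, 92.9, 79.9 and 82.4 (0.17 ± 0.12, q = 0.453). Both pairs of groups overlapped.

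Of the oxidases, Ero1a (ENSMUSG00000021831.10, chromosome 14), the broadly expressed form, measured 32.8, 22.2, 29.1 and 38.8 CPM in control cold and 45.9, 32.9, 32.6 and 23.7 in KO cold. The groups overlapped over most of their range, and the difference was 0.14 ± 0.20 (q = 0.764). Ero1b (ENSMUSG00000057069.8, chromosome 13), the form best known from the pancreas, measured 4.03, 3.09, 2.48 and 0.706 CPM against 4.28, 7.83, 7.31 and 5.08. In CPM all its KO cold libraries lay above its control cold libraries, but control cold 1 and KO cold 1 both had 7 counts. Ero1b had 1 to 15 counts per library over the study, and the difference of 1.20 ± 0.42 did not pass (q = 0.102). Without Ero1b, groups that did not overlap, with KO higher, were seen for Pdia4 and Pdia6, 2 of 8 genes, against 6.28% of all tested genes, and with KO lower for none, against 6.53%.

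At RT the same question gave no call among the 9 genes: edgeR called 0, DESeq2 called 0, and 0 had an unadjusted p under 0.05. In edgeR the deleted Stim1 was not called there either, so a lack of calls does not show equal levels. Over all genes edgeR called 0, 0.0% of those tested, and 3.12% had an unadjusted p under 0.05. Pdia6 measured 195 and 198 CPM in control RT 1 and 2 and 236, 210.0 and 246 in KO RT 1 to 3, so its groups did not overlap, with a difference of 0.23 ± 0.19 (q = 1). Ero1a lay lower in every KO RT library, with 12.7, 16.6 and 14.2 CPM against 19.3 and 18.1 (-0.37 ± 0.29, q = 1). Groups without overlap were found at RT in 8.68% of all tested genes with KO higher and in 7.96% with KO lower.

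For Pdia3 the RT values were 56.6 and 66.3 CPM in control and 55.7, 62.5 and 87.1 in KO (0.16 ± 0.29, q = 1). Pdia4 measured 9.20 and 9.04 CPM in control RT and 10.6, 8.03 and 13.1 in KO RT (0.22 ± 0.42, q = 1). In both, the control values fell inside the KO range. The remaining tested genes, P4hb, Txndc5, Erp29, Erp44 and Ero1b, had fold changes between -0.07 and 0.45, each with q = 1, and Pdia5 gave 0.50 ± 0.57 in the fit without the filter (q = 1).

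**Figure D2:**
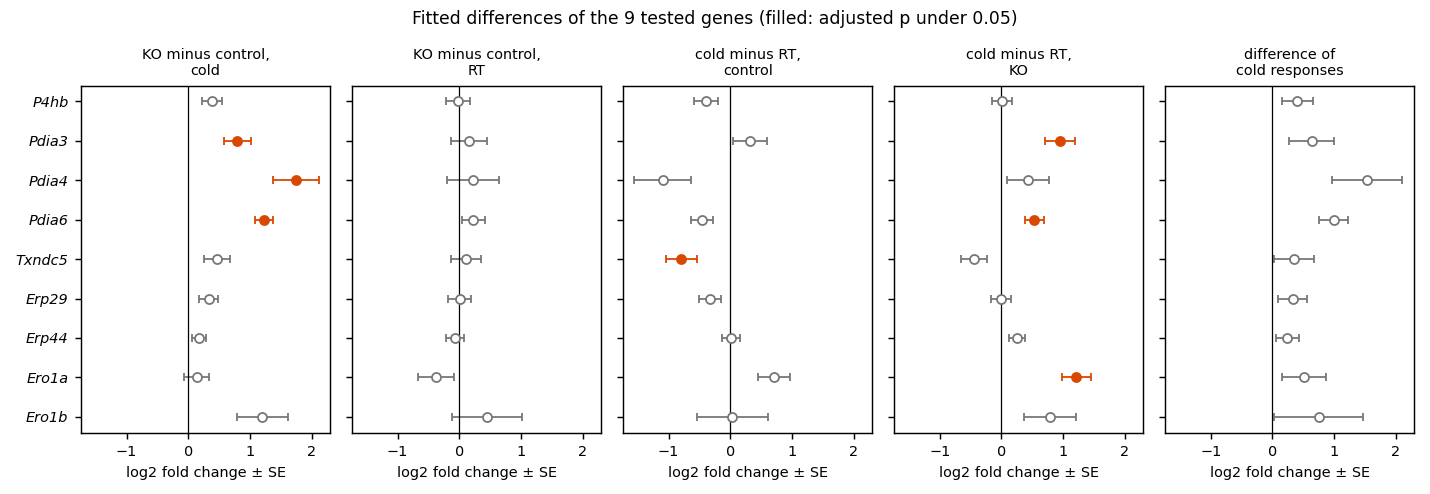
Log2 fold change with its standard error (horizontal axis) of the 9 tested genes in KO against control at both temperatures, the cold response of each genotype and the difference of the responses, with filled points for adjusted p under 0.05. Pdia6, Pdia4 and Pdia3 are filled for KO against control in cold (1.22, 1.75 and 0.79), and no point is filled at RT or for the difference.

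In control mice Txndc5 fell with cold, and none of the 9 genes passed towards higher levels. The tests of cold share libraries with those of genotype, so each is given for its own values. In all, 12.6% of tested genes were changed towards lower and 12.7% towards higher levels by cold in control, so 1 of 9 is close to that background. Txndc5 measured 14.7 and 21.1 CPM in control RT and 9.18 to 11.1 in control cold, without overlap (-0.79 ± 0.25, q = 0.0281). The call was lost without control cold 1 (q = 0.0546), control cold 4 (q = 0.0552) or control RT 2 (q = 0.258, log2 fold change -0.52), and DESeq2 did not make it (q = 0.0824).

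Several isomerases lay lower in control cold than in control RT without passing. Pdia6 had 131 to 172 CPM in cold against 195 and 198 at RT (-0.46 ± 0.18, q = 0.0630), and it passed without control cold 4 (q = 0.0322), KO cold 1 (q = 0.0284) or KO cold 2 (q = 0.0499). Pdia4 had 2.48 to 6.35 against 9.20 and 9.04 CPM (-1.09 ± 0.46, q = 0.0917), and P4hb had 31.7 to 43.1 against 45.5 and 55.4 CPM (-0.40 ± 0.19, q = 0.141). With Txndc5, these made 4 of 9 genes whose control cold libraries all lay below their control RT libraries, against 20.6% of all tested genes.

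Erp29, Pdia3, Erp44 and Ero1b overlapped between control cold and control RT (-0.33 ± 0.18, 0.32 ± 0.28, 0.01 ± 0.14 and 0.03 ± 0.57, with q from 0.195 to 0.976). Ero1a went the other way: 22.2 to 38.8 CPM in control cold against 19.3 and 18.1 at RT (0.71 ± 0.27, q = 0.0610). It passed without control cold 2 (q = 0.0301), KO cold 1 (q = 0.0445) or KO cold 4 (q = 0.0435), and without the count filter (q = 0.0452). The q without the filter is not on the scale of the main fit, as described in the last section. It was the 1 gene of 9 with all control cold libraries above all control RT libraries, against 19.8% of all tested genes.

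In KO mice cold raised Ero1a, Pdia3 and Pdia6, 3 of 9 genes, and lowered none, where 9.43% of all tested genes were changed towards higher and 9.45% towards lower levels. Ero1a measured 12.7, 16.6 and 14.2 CPM in KO RT and 45.9, 32.9, 32.6 and 23.7 in KO cold, with no overlap. Its mean went from 14.5 ± 2.01 (SD, n = 3) to 33.8 ± 9.14 (SD, n = 4), 2.33-fold in the fit (1.22 ± 0.24, q = 0.00211), and this held on leaving out any 1 library (q = 0.000889 to 0.0167). Pdia3 went from 68.5 ± 16.5 (SD, n = 3) to 132 ± 35.5 CPM (SD, n = 4), 1.93-fold (0.95 ± 0.24, q = 0.00992), although KO RT 3, with 87.1 CPM, lay above KO cold 1. Without KO RT 1 its q was 0.0622.

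Pdia6 went from 231 ± 18.7 (SD, n = 3) to 333 ± 70.7 CPM (SD, n = 4), 1.44-fold (0.53 ± 0.15, q = 0.0234), and KO cold 1, at 238 CPM, lay within the KO RT range. The call was lost without KO cold 2, KO cold 3, KO RT 1 or KO RT 2 (q = 0.0635 to 0.0944). Pdia4 overlapped between KO RT and KO cold (0.43 ± 0.34, q = 0.400). Every KO cold library of Erp44 lay above its KO RT libraries (78.9 to 92.9 against 64.3 to 78.5 CPM), but the difference was 0.25 ± 0.13 (q = 0.180). Txndc5 lay lower in every KO cold library (10.2 to 16.9 against 17.8 to 20.3 CPM, -0.45 ± 0.21, q = 0.150). P4hb and Erp29 differed by 0.01 ± 0.17 and -0.01 ± 0.16 (q = 0.982 and 0.985), and Ero1b by 0.78 ± 0.42 (q = 0.207). Groups without overlap were thus 2 of 9 with cold higher (Ero1a and Erp44) and 1 of 9 with cold lower (Txndc5), against 15.8% and 16.4% of all tested genes.

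Pdia5, left out of the tests by the filter, had lower CPM in cold than at RT in the libraries of both genotypes, on 1 to 16 counts per library. It measured 4.60 and 3.01 CPM in control RT, 8.10, 3.44 and 4.72 in KO RT, 0.706 to 1.86 in control cold and 1.57 to 1.84 in KO cold. No cold library reached any RT library. Of all tested genes, 20.6% in control and 16.4% in KO lay lower in cold without overlap. A fit with no filter gave -1.39 ± 0.67 in control (q = 0.186), which did not pass, and -1.63 ± 0.54 in KO (q = 0.0296), on 67 counts in all. The q of that fit are not on the scale of the main fit, as described in the last section.

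Whether the response to cold differed between genotypes was tested as the difference of the responses, KO minus control. edgeR called 0 of the 9 genes, 2 had an unadjusted p under 0.05 (8.25% of all tested genes did), and DESeq2 called 1. Over all tested genes the test called 0.0181%, 2 genes, both lower, and 0.0% higher. Pdia6 had a difference of 0.99 ± 0.23 with q = 0.244, but q = 0.0414 in DESeq2 and q = 0.00242 without the count filter. Both of these fits also called more genes over all than the main fit did, with the counts given in the last section. The q without the filter is moreover not on the scale of the main fit. Pdia4 had 1.53 ± 0.57 (q = 0.493) and Pdia3 0.63 ± 0.36 (q = 0.691). Leaving Ero1b aside, the difference was above 0 in all 8 genes, from 0.24 in Erp44 to 1.53 in Pdia4, and in 50.3% of all tested genes.

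Summed over the 10 genes, levels ran from 462.6 to 505.6 CPM in control RT, 485.4 to 555.8 in KO RT, 393.0 to 484.2 in control cold and 561.8 to 848.8 in KO cold. Every KO cold library lay above every other library. Pdia6 alone made up 42.4% to 47.8% of the sum in KO cold, 32.0% to 35.4% in control cold, 39.2% to 42.2% in control RT and 43.3% to 45.1% in KO RT. These are shares of tags, of which the kit makes about 1 per transcript end, so they were not divided by gene length. The KO cold libraries also differed among themselves: KO cold 2 was the highest of its group for 6 of the 10 genes and KO cold 1 the lowest for 5. In control cold, library 4 was the highest for 5.

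**Figure D3:**
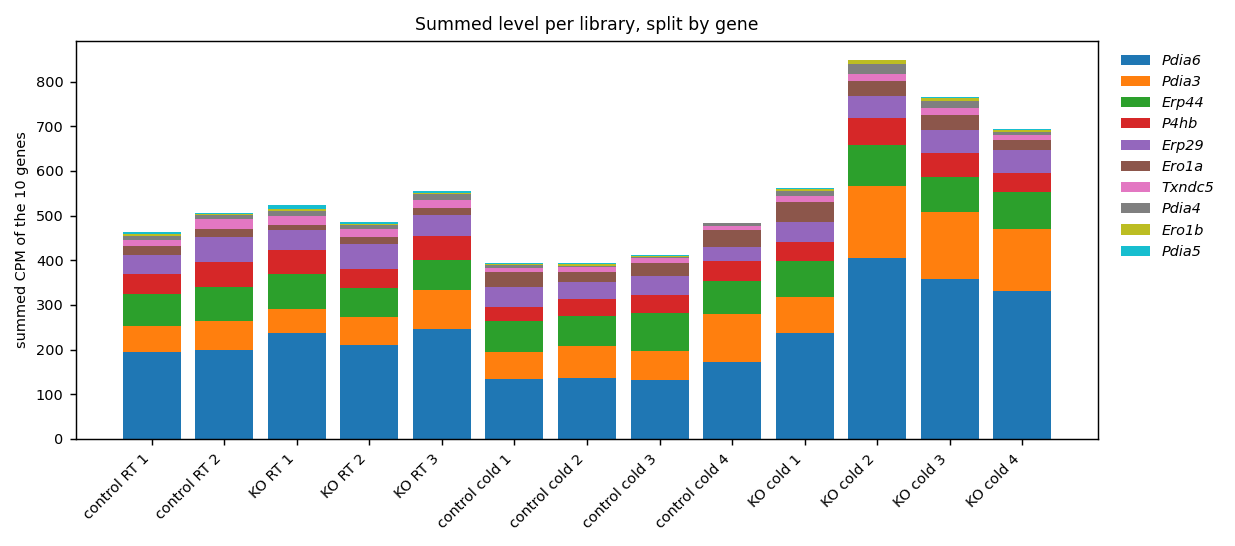
Summed CPM of the 10 genes in each library (stacked bars from 0, vertical axis), by group, with a colour for each gene. KO cold bars reach 561.8 to 848.8 CPM, above the 393.0 to 555.8 of the other libraries.

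Other genes of the pathway were followed as 3 lists. Among 23 other oxidative folding genes, of which 17 were tested, 1 rose and 2 fell in KO cold against control cold (median 0.11). Over all tested genes 2.44% rose and 3.49% fell there. Creld2, a small ER protein with disulfide isomerase activity, rose by 2.23 ± 0.31 (q = 0.000445), with 2.88, 5.56, 9.29 and 10.6 CPM in control cold and 18.4, 42.8, 37.1 and 32.2 in KO cold. Every KO cold library of Creld2 lay above all controls. Gpx8, a peroxidase of the ER that consumes hydrogen peroxide, fell (-0.91 ± 0.19, q = 0.00940), as did Tmx4, a membrane-bound relative of the isomerases (-0.46 ± 0.12, q = 0.0343). The Tmx4 call was lost on leaving out any 1 of control cold libraries 2 to 4 and KO cold libraries 2 to 4 (q = 0.0537 to 0.116), and in a fit of the cold libraries alone (q = 0.0647).

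Among 16 partners and clients, 15 tested, 3 rose and 1 fell (median 0.14). Calr, the calreticulin that works with Pdia3, measured 153.8, 172, 162 and 198 CPM in control cold and 299, 384, 343 and 415 in KO cold (1.07 ± 0.13, q = 0.000140). Hsp90b1, the ER form of HSP90, rose by 1.0 ± 0.18 (q = 0.00285) and Hspa5, the chaperone BiP, by 1.0 ± 0.23 (q = 0.0165). P4ha1, the subunit that pairs with P4hb in collagen prolyl hydroxylase, fell (-0.97 ± 0.23, q = 0.0205). Hspa5 was lost without control cold 2, KO cold 2 or KO cold 3 (q = 0.0504 to 0.0574), and P4ha1 without control cold 3 or any of KO cold 1 to 3 (q = 0.0506 to 0.0655).

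Of 12 genes that control the unfolded protein response, all tested, Creb3l2 passed (0.92 ± 0.25, q = 0.0400) and the median was 0.34. Creb3l2, an ER-anchored transcription factor, was lost on leaving out any 1 of 8 libraries (control cold 2 to 4, KO cold 1 to 3, KO RT 1 and KO RT 3, with q = 0.0503 to 0.130) and in a fit of the cold libraries alone (q = 0.0668). Xbp1, named after its values were seen, had 0.95 ± 0.29 and q = 0.0588 in edgeR, and q = 0.0299 in DESeq2. At RT and in the difference of responses edgeR called none of the genes of these lists. Unadjusted p was under 0.05 for 1 of them at RT, Stim1, which the list of partners holds, against 3.12% of all tested genes. In the difference it was under 0.05 for 3 of 17 other oxidative folding genes, 3 of 15 partners and clients and 2 of 12 response genes. The share over all tested genes was 8.25%. DESeq2 called 1 in each, and its counts over all genes are given in the last section.

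**Figure D4:**
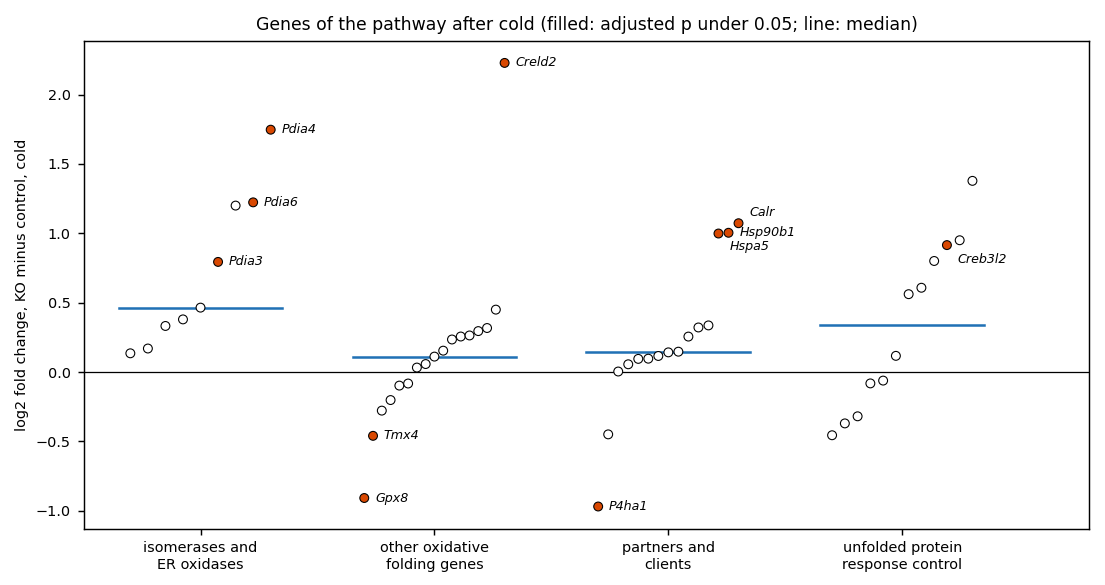
Log2 fold change, KO minus control in cold (vertical axis), of each tested gene of the isomerase and oxidase set and of the 3 lists (horizontal axis), with filled points for adjusted p under 0.05 and blue lines for medians. The medians are 0.46 for the isomerases and oxidases, 0.11, 0.14 and 0.34 for the lists, and Creld2 (2.23) and Pdia4 (1.75) are the highest named points. The 0.46 includes Ero1b, which passed the count filter only through KO cold libraries, and is 0.42 without it.

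Genes of the lists also changed with cold in control mice, where 12.7% of all tested genes rose and 12.6% fell. Other oxidative folding genes had 5 higher and 0 lower of 17, led by Tmx4 (1.70 ± 0.17, q = 5.36e-06), Qsox2 and Qsox1, sulfhydryl oxidases (0.95 ± 0.20, q = 0.00295, and 0.82 ± 0.23, q = 0.0181), and Selenof, a selenoprotein of the ER (0.48 ± 0.16, q = 0.0365). Partners and clients had 3 higher and 1 lower of 15: P4ha1 (1.47 ± 0.30, q = 0.00245), the chaperone Canx (0.59 ± 0.13, q = 0.00357) and P4ha2 (1.30 ± 0.37, q = 0.0176) rose, and Tapbp, which holds MHC class I with Pdia3, fell (-0.87 ± 0.19, q = 0.00309). Of the response genes, Atf4 (1.58 ± 0.43, q = 0.0129), Trib3 (2.76 ± 0.75, q = 0.0130) and Atf6 (0.72 ± 0.22, q = 0.0250) rose and Creb3l2 fell (-1.16 ± 0.29, q = 0.00786). Leaving out control RT 1 ended the calls of Qsox1, Qsox2, P4ha1, P4ha2, Canx, Tapbp, Creb3l2, Atf4, Trib3 and Atf6 (q = 0.0573 to 0.220), Selenof was lost without control cold 2 or control RT 2 (q = 0.0823 and 0.271), Trib3 also without control RT 2, and Atf6 also without control cold 1 or 4 or control RT 2. Control RT 1 is the library with the highest skeletal muscle markers, of which Acta1, Ckm and Tnnt3 fell in the same comparison (q = 0.0301, 0.0393 and 0.0371), and their part in these values was not tested. Txndc5 measured 14.7 CPM in control RT 1 and 21.1 in control RT 2. Leaving out control RT 1 therefore widens its fall and cannot test the part of muscle.

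In KO mice cold raised 4 and lowered 2 of the 17 other oxidative folding genes, where 9.43% of all tested genes rose and 9.45% fell. Creld2 rose here (1.71 ± 0.31, q = 0.00129), beside Tmx4 (1.05 ± 0.14, q = 0.000102), Qsox1 (1.05 ± 0.20, q = 0.00180) and Qsox2 (0.84 ± 0.16, q = 0.00215). Of partners and clients 6 rose and 1 fell, with Hspa5 (1.49 ± 0.26), Hsp90b1 (1.32 ± 0.20), Calr (1.15 ± 0.15) and Canx (0.70 ± 0.11) among those that rose. Of the response genes 5 rose and 0 fell, led by Trib3 (3.83 ± 0.64, q = 0.000618), Atf6 (1.0 ± 0.20, q = 0.00208), Atf4 (1.36 ± 0.36, q = 0.0148) and Ddit3 (1.6 ± 0.49, q = 0.0300). Atf4 was lost without KO RT 1 (q = 0.0784), and Ddit3 on leaving out any 1 of KO cold 1 to 3 and KO RT 1 to 3 (q = 0.0517 to 0.116) and in DESeq2 (q = 0.0646).

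Markers of other cell types that make much secreted protein were set beside these values. For plasma and B cells, 7 markers summed to 8.67 to 23.6 CPM in control cold and 23.3 to 39.6 in KO cold, 10.6 to 43.4 in control RT and 20.3 to 31.0 in KO RT, and Mzb1 and Cd79a had 0 counts in every library. Of that list Derl3, which is also an ER degradation factor, passed in KO cold against control cold (q = 0.0241), with 1.84, 9.39, 7.31 and 2.26 CPM against 0 in control cold 1, 2 and 3 and 1.41 in control cold 4. Derl3 passed the count filter only through KO cold 2 and 3, so a difference towards that group was built into its being tested. Jchain of the same list lay higher in every KO cold library (4.90 to 12.5 against 1.86 to 4.03 CPM, q = 0.192). Igkc measured 10.1 to 17.7 CPM in KO cold and 2.47 to 13.8 in control cold (1.02 ± 0.50, q = 0.271). Ighm went the other way, with 3.06, 0, 1.69 and 2.82 CPM in KO cold and 2.12 to 6.18 in control cold (q = 0.275). Ighm fell with cold in KO (q = 0.00812), where Derl3 rose (q = 0.0213), a direction that the filter favoured as well. For fibroblasts, 6 markers summed to 477.0 to 1404 CPM in control cold, 517 to 611 in KO cold, 832 to 898 in control RT and 636 to 1312 in KO RT. None of the fibroblast markers passed between genotypes in cold, where all 6 log2 fold changes were below 0 (-0.34 to -0.88). With cold in KO 5 of 6 fell, against 9.45% of all tested genes. Macrophage markers (7) summed to 84.9 to 263 CPM in control cold, 95.9 to 119 in KO cold, 134 to 172 in control RT and 106 to 156 in KO RT. All but Cd68 were tested, and none was called in any comparison. In KO against control in cold, all tested ones had log2 fold changes below 0 (-0.42 to -0.91). The part of these cells in the changes of the isomerases was not tested.

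Genes whose pattern over the 13 libraries was most like that of a changed member were found by the root mean square difference of log2 CPM, each centred on its mean. Members were left out of this search. Nearest to Pdia3 were the chaperone Hsp90b1 (0.22) and Pgm3 (0.22), an enzyme of UDP-GlcNAc synthesis, and nearest to Pdia6 were Pfas (0.23), of purine synthesis, and Npc1 (0.23), of lysosomal cholesterol export. Of these other genes Pdia4 was nearest to Gm49599 (0.38) and Creb3l2 (0.39), Txndc5 to Utrn (0.14) and Commd7 (0.15), and Ero1a to Atf6 (0.20) and Fam50a (0.22). Within the set, Pdia3 and Pdia6 differed by 0.37, Pdia4 and Pdia6 by 0.38, Txndc5 and P4hb by 0.25, and Ero1a and its nearest, Erp44, by 0.49. The libraries share groups and scaling, so these distances are descriptions.

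Some of the genes overlap others on the opposite strand in GENCODE M21, and whether counting used strand is not given in the sources used here. Summed over all libraries, Txndc5 had 340 counts and its partner Bmp6 368, and Erp29 had 1064 counts and its partner Naa25 2024, so tags of these pairs could have been split. Pdia3 had 2048 counts against 181 for Catsper2, and Pdia6 had 5351 against 9 for Atp6v1c2.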

How the data were processed

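RNA of brown adipose tissue from 13 libraries was sequenced with a QuantSeq kit (3′ tags), according to the labels. The authors deposited raw counts for each gene without normalization, and the file's name gives Ensembl release 103 as annotation. Per the submitters' processing notes the build was GRCm39 and the tools were STAR 2.7.10b, HTSeq 0.12.3, Trim Galore 0.6.7, UMI-tools 1.1.2, limma and edgeR. Their parameters, the strand setting and any collapsing by molecular identifier are not stated there.

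Of 55632 lines, 275 that repeated an identifier with the same counts were dropped. In R 4.3.3, edgeR 4.0.16 kept genes by filterByExpr (minimum count 10), scaled by trimmed mean of M values and fitted all 13 libraries at once with a coefficient per group, so the spread was estimated over all groups together (biological coefficient of variation 16.1%). Control cold libraries had scaling factors of 0.889 to 0.970, KO cold ones of 0.981 to 1.0 and RT ones of 1.04 to 1.09. The 5 contrasts were tested two-sided with the quasi-likelihood test, Benjamini-Hochberg adjusted over all tested genes of a contrast, and standard errors are the fold change divided by the square root of F. CPM use the scaled library size over tested genes. Every replicate pair differed by more than sampling noise (chi-square over degrees of freedom 2.03 to 7.19). The procedure was also run on simulated counts, which lacked the scaling and muscle differences of these libraries, and no result here rests on that run. Alternatives were relative log expression scaling, no filter, DESeq2 1.42.0, a replicate block, the cold libraries alone, and leaving out each library.

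The members and lists were chosen with earlier results of these data known. Every member is named, as are up to 4 genes with the smallest p past the threshold per list and comparison and the 2 genes most like each changed member. Motifs were searched as letters on both strands. Library totals of 1570684 to 2016178 counts limit the precision of genes with few counts.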

Additional observations from a re-analysis of the deposited data

Results flagged for a closer look

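Pdia6 in control cold 4 measured 172 CPM, while the other control cold libraries measured 131 to 136. Its gap to the nearest of them was 0.886 of the group's range, above Dixon's 95% critical value for 4 samples. Such a gap is expected by chance in about 1 of 20 groups, and 20 groups of 4 libraries were examined. Without this library the fold change of Pdia6 between genotypes in cold kept its direction and its call, and the lower level in control cold than in control RT passed the threshold (q = 0.0322).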

How the results depend on the processing

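For single genes, 82 values were recomputed under each alternative that applies (40 of them called). Of the recomputed values, 1283 kept direction and side of the threshold, 17 came to pass it, 77 no longer passed, and 24, called neither before nor after, changed sign. These had reported log2 fold changes of at most 0.16 in size. When 1 library was left out, Ero1a for KO against control in cold ran from -0.042 to 0.27. At RT P4hb ran from -0.17 to 0.13, Pdia3 from -0.059 to 0.29, Txndc5 from -0.14 to 0.39 and Erp29 from -0.22 to 0.25. For cold in control Erp44 ran from -0.054 to 0.055 and Ero1b from -0.26 to 0.53, and for cold in KO P4hb from -0.10 to 0.084 and Erp29 from -0.070 to 0.11. Erp29 also changed sign at RT with relative log expression scaling (-0.00030) and for cold in KO without the filter (0.015) and with the replicate block (0.031). Scaling by relative log expression moved none across the threshold. Among the genes of the set, KO against control in cold gave 2 to 3 calls when 1 library was left out, cold against RT in control 0 to 3, with 0 in DESeq2 and 0 with the replicate block, and cold against RT in KO 1 to 4, where the fourth is Pdia5, which entered the tests without control RT 1 or 2. The difference of responses gave 1 call without the filter and 1 in DESeq2, and 0 on leaving out any library. Over all genes, leaving out 1 library gave 392 to 716 calls for KO against control in cold, 0 to 3 at RT, 1067 to 2821 for cold in control, 1219 to 2271 for cold in KO and 0 to 4 for the difference. KO against control at RT gave 50 calls without the filter and 3 in DESeq2, and the difference 133 without the filter, 29 in DESeq2 and 0 with the replicate block. The cause was not tested. The labels do not say whether replicate numbers pair the samples. Correlations of deviations between libraries of the same number were -0.227 to 0.333 (16 pairs). Of 13 libraries, 4 matched best with their own number. The deviations were taken from means of small groups, which itself shapes these correlations, so they cannot decide whether samples are paired. With the replicate block 7 calls were lost: Tmx4 (q = 0.0668) and Creb3l2 (q = 0.0681) for KO against control in cold, Txndc5 (q = 0.0647), P4ha2 (q = 0.0589) and Atf6 (q = 0.0570) for cold in control, and Pdia6 (q = 0.0646) and Ddit3 (q = 0.0610) for cold in KO. Pdia4, Pdia5 and Ero1b rest on few counts, which limits their precision. Where the RT groups lose a library, 1 control RT library can remain, and it is then assumed to vary like the other groups.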
